A study of Mus musculus with 12 samples.

Results

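The comparison described here is H3K27me3 in lincRNA-p21 knockout (KO) cells, doxorubicin against mock, taken from 2 peak lists of 1 library each. Trimethylated lysine 27 of histone H3 (H3K27me3) was mapped by chromatin immunoprecipitation with sequencing (ChIP-seq), in which an antibody, here abcam ab6002, pulls down the chromatin that carries the mark. Both groups were primary mouse embryonic fibroblasts of a hybrid 129/B6 background that lacked lincRNA-p21 (lincRNA-p21-/-). The doxorubicin group received the drug for 24 h, at 0.5 mM as the labels print it, and the other group was mock treated. The 2 lists held 34408 of the 128880 peaks in the 8 ChIP lists of the series, which also covers trimethylated lysine 4 (H3K4me3) and wild-type (WT) cells under the same treatments. The labels give no number of embryos or cultures behind a library, and the KO and WT cells may differ in more than the deleted locus.

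Polycomb repressive complex 2 writes H3K27me3, and the mark is found over broad stretches of chromatin where genes are held silent. Its best known targets are the Hox clusters, arrays of genes for homeodomain transcription factors that set position along the body axis. Fibroblasts keep a record of their place in the body as a pattern of active and Polycomb-covered Hox genes. LincRNA-p21 is a long noncoding RNA that p53 induces after DNA damage, encoded next to Cdkn1a, the gene of the cell cycle inhibitor p21. Doxorubicin is a DNA-damaging drug that activates p53.

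Peaks of a list less than 3 kb apart were joined into domains. A domain counted as present in the other list if at least 1 bp of it overlapped a domain there. The 17828 peaks of the KO doxorubicin list formed 10193 domains, and the 16580 peaks of the KO mock list formed 9836. Each peak carries a score, 10 times the negative log10 of the peak caller's p-value. It was used to describe and rank peaks, to form score classes in each list, and as a cut in an alternative. Whether the scores of different lists are on the same scale was not tested. With 1 library per group no spread between replicates could be measured, no p-value was computed, and the differences below are differences between these 2 libraries. The intervals in the text are exact (Clopper-Pearson) 95% binomial intervals. They cover counting error over domains only, and neighbouring domains are not independent. The lists hold no read numbers, so the depth of each library is unknown.

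The total extent of the mark was close to equal in the 2 KO lists. Peaks covered 35.9 Mb in KO doxorubicin cells and 36.3 Mb in KO mock cells, a ratio of 0.990. Domains, which include the short gaps between joined peaks, spanned 42.0 Mb in both. The 2 WT lists were further apart, with 39.0 Mb covered in WT doxorubicin cells and 48.0 Mb in WT mock cells, a ratio of 0.812. The WT mock list was the broadest of the 4, and 130 of its domains were under 1 kb, against 1319 in WT doxorubicin, 2089 in KO doxorubicin and 1570 in KO mock cells. With 1 library each, the genotype and the breadth of that list cannot be told apart behind the difference between the KO and WT ratios.

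The domains also had similar lengths. The median span was 1986 bp in KO doxorubicin cells and 2120 bp in KO mock cells, and the mean was 4124 and 4268 bp. Domains of 10 kb or more were about equally frequent, with 869 in KO doxorubicin and 890 in KO mock cells. Of 20 kb or more there were 266 in KO doxorubicin and 264 in KO mock cells, and of 50 kb or more 29 in KO doxorubicin and 20 in KO mock cells. The longest domain spanned 93.5 kb in KO doxorubicin cells and 148 kb in KO mock cells. At the short end the lists differed more. Domains under 1 kb were 20.5% of the KO doxorubicin list and 16.0% of the KO mock list.

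About 1 domain in 3 of either list had no counterpart in the other. Of the KO doxorubicin domains, 3511 of 10193 had no KO mock domain, which is 34.4% (33.5 to 35.4%). Of the KO mock domains, 3185 of 9836 had no KO doxorubicin domain, which is 32.4% (31.5 to 33.3%). The names of the peaks carry running numbers in genome order, and numbers were left out of both lists. Between the KO mock peaks that flank a domain found with doxorubicin alone, at least 1 number was left out at 3098 of 3501 places (88.5%), the median distance between the flanking peaks being 145628 bp. Around the domains found with mock alone this held for 2833 of 3173 places (89.3%) in the KO doxorubicin list, with a median distance of 123153 bp. A domain without a counterpart is therefore one with no listed peak in the other list, and whether a peak was called there and removed was not tested. Over the whole lists, 47.2% of the KO mock numbers and 46.9% of the KO doxorubicin numbers were absent. The share for other blanks of such length was not computed, so whether these places stand out was not tested. In WT cells the shares without a counterpart were 30.4% of the WT doxorubicin domains and 33.3% of the WT mock domains. The absent domains were small and low in score. Domains found with doxorubicin alone had a median span of 1049 bp and a median score of 104, against 3368 bp and 245 for the KO doxorubicin domains with a counterpart. Domains found with mock alone had a median span of 1107 bp and a median score of 106, against 3471 bp and 268 for the KO mock domains with a counterpart.

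The share without a counterpart fell steadily with score and with span, in both lists alike. At scores of 80 to 100, 72.0% of the KO doxorubicin domains and 69.8% of the KO mock domains had none. At scores of 200 to 300 the shares were 13.9% in KO doxorubicin and 13.7% in KO mock cells. At 500 or more they were 6 of 1883 KO doxorubicin domains and 2 of 2020 KO mock domains. By span, 72.1% of KO doxorubicin domains and 71.6% of KO mock domains under 1 kb had no counterpart. Of those of 20 kb or more, 1 of 266 KO doxorubicin domains and 0 of 264 KO mock domains had none.

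**Figure D1:**
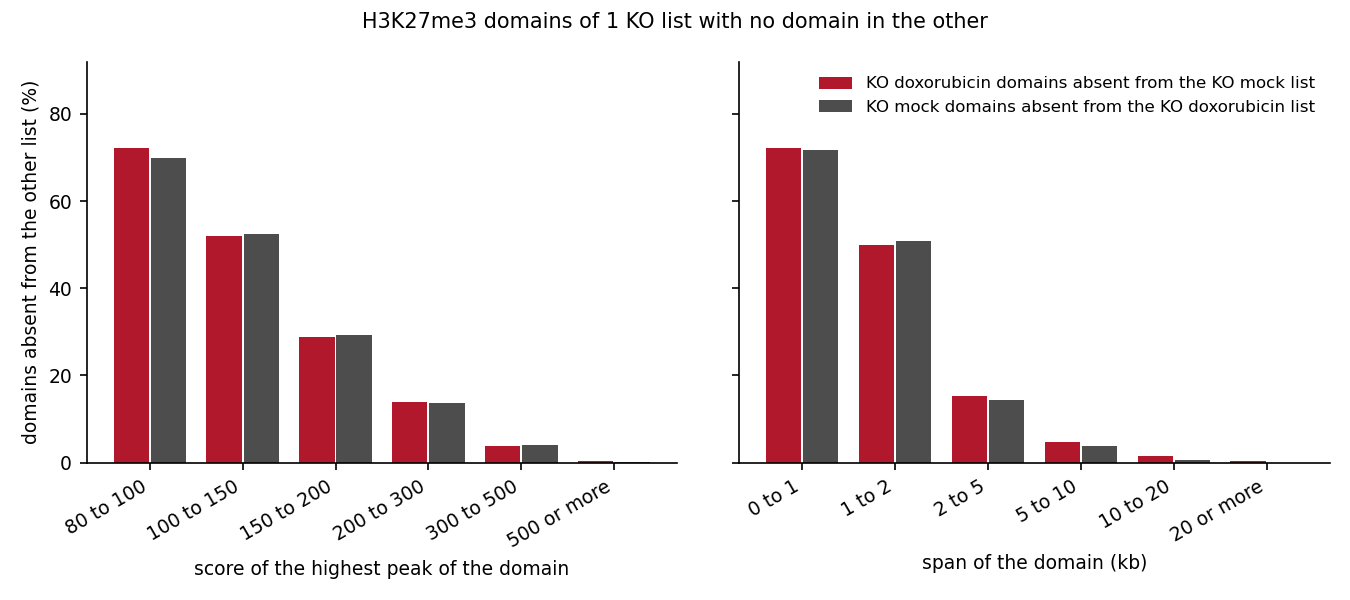
Share of KO doxorubicin domains (red) and KO mock domains (dark grey) with no overlapping domain in the other KO list, in percent, by the score of the domain's highest peak (left) and by its span in kb (right). The bars of both lists fall together from about 72.0% in the lowest class to under 1% in the highest, and the pair at 80 to 100 is 72.0% in KO doxorubicin and 69.8% in KO mock cells.

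The domains found in a single KO list overlapped the WT lists less often than the domains of both KO lists did. Of the domains found with doxorubicin alone, 52.1% (50.5 to 53.8%) lay in neither WT list. A further 15.4% overlapped the WT doxorubicin list alone, 15.9% the WT mock list alone and 16.6% both. Of the domains found with mock alone, 46.3% (44.5 to 48.0%) lay in neither WT list, 11.4% in the WT doxorubicin list alone, 22.4% in the WT mock list alone and 19.9% in both. The WT mock list also covered more of the genome than the WT doxorubicin list (48.0 Mb, against 39.0 Mb in WT doxorubicin cells), and the part of that in these shares was not tested. Of the domains in both KO lists, 79.5% of those of KO doxorubicin cells and 79.3% of those of KO mock cells lay in both WT lists. In neither lay 6.35% (5.77 to 6.96%) of those of KO doxorubicin cells and 6.60% (6.02 to 7.22%) of those of KO mock cells. Domains found in a single KO list were also shorter. Their median spans were 1049 bp (doxorubicin) and 1107 bp (mock), against 3368 and 3471 bp for domains with a counterpart. The part of span and score in these shares was not tested.

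The absent domains seldom overlapped H3K4me3, the mark of active and poised promoters. An H3K4me3 peak of the same cells overlapped 3.33% (2.76 to 3.98%) of the domains found with doxorubicin alone. Among KO doxorubicin domains with a single KO mock partner it overlapped 23.0% (21.9 to 24.0%). Of the domains found with mock alone, 4.43% (3.74 to 5.20%) overlapped an H3K4me3 peak, against 23.6% (22.5 to 24.6%) of the KO mock domains with a single partner. Span moves with these shares, and within a span class they still differed. Score moves with them too. Of KO doxorubicin domains, 3.24% at scores of 80 to 100 and 45.1% at 500 or more overlapped an H3K4me3 peak. The part of score, and of span within a class, in these shares was not tested. Among KO doxorubicin domains of 2 to 5 kb, 4.85% (2.99 to 7.40%) of those without a counterpart and 23.1% (21.3 to 24.8%) of those with one overlapped an H3K4me3 peak. Among KO mock domains of the same spans, the shares were 7.63% (5.17 to 10.8%) without and 23.2% with a counterpart.

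At the level of bases, the 2 KO lists had 24.3 Mb in common, which is 67.7% of the KO doxorubicin length and 67.0% of the KO mock length. The KO doxorubicin list alone covered 11.6 Mb, and the KO mock list alone covered 12.0 Mb. Most of this unshared length lay inside domains that both lists held, as differing edges and gaps, namely 60.7% of the KO doxorubicin part and 64.8% of the KO mock part.

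Domains that were split or merged between treatments were few. Of the KO mock domains, 255 were overlapped by several KO doxorubicin domains, which is 2.59%. Conversely 218 KO doxorubicin domains each joined several KO mock domains, which is 2.14%. In WT cells the same counts were 455 WT mock domains split (4.44%) and 177 WT doxorubicin domains joining several WT mock domains (1.72%). Splits thus outnumbered joins in both genotypes, by less in KO than in WT cells. Most splits were minimal: 229 of the 255 split KO mock domains met exactly 2 KO doxorubicin domains, and 190 of the 218 joining KO doxorubicin domains met exactly 2 KO mock domains. The gaps that divided them had a median of 4000 bp for split domains and 3996 bp for joined ones, just above the 3 kb used for joining, and 77.2% of both kinds were under 5 kb. Both kinds were long, with a median span of 13755 bp for split KO mock domains and 15260 bp for joining KO doxorubicin domains. By the joining rule no such gap can be under 3 kb, so these domains must span more than 3 kb. Of the domains of 20 kb or more, 85 of 266 KO doxorubicin domains (32.0%) joined several KO mock domains and 71 of 264 KO mock domains (26.9%) were split.

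The 5945 pairs of 1 KO doxorubicin and 1 KO mock domain differed in length in both directions, with no clear balance to either side. The KO doxorubicin domain was the shorter in 51.7% of pairs. The median difference, doxorubicin minus mock, was -40 bp, with quartiles of -964 and 871 bp. In 619 pairs the KO doxorubicin domain was at least 2 times as long as its KO mock partner, and in 657 the KO mock domain was at least 2 times as long as its KO doxorubicin partner. In the 6041 such pairs of WT cells the doxorubicin domain was the shorter in 66.5%, with a median difference of -480 bp. Pairs whose KO mock domain was under 2 kb had a median difference of 272 bp, and those at 5 to 10 kb one of -722 bp. Because these classes were formed by the KO mock span itself, the sign within a class is no result. Both ends lay within 500 bp of each other in 25.1% of the pairs.

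Overlapping domains of the 2 KO lists were then merged into groups, 13093 in all, of which 6397 held domains of both lists. Within these 6397 the covered length was larger with doxorubicin in 2977 and smaller in 3415, with a median difference of -79 bp. Gains summed to 3.61 Mb and losses to -4.31 Mb, which leaves -0.701 Mb, doxorubicin minus mock. Differences of 10 kb or more were rare, with 13 groups gaining and 8 losing that much among the 6397. The 2 largest losses, at the HoxC and HoxB clusters, came to -95.8 kb together. The plot of covered length by group shows both below the diagonal at its upper end.

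**Figure D2:**
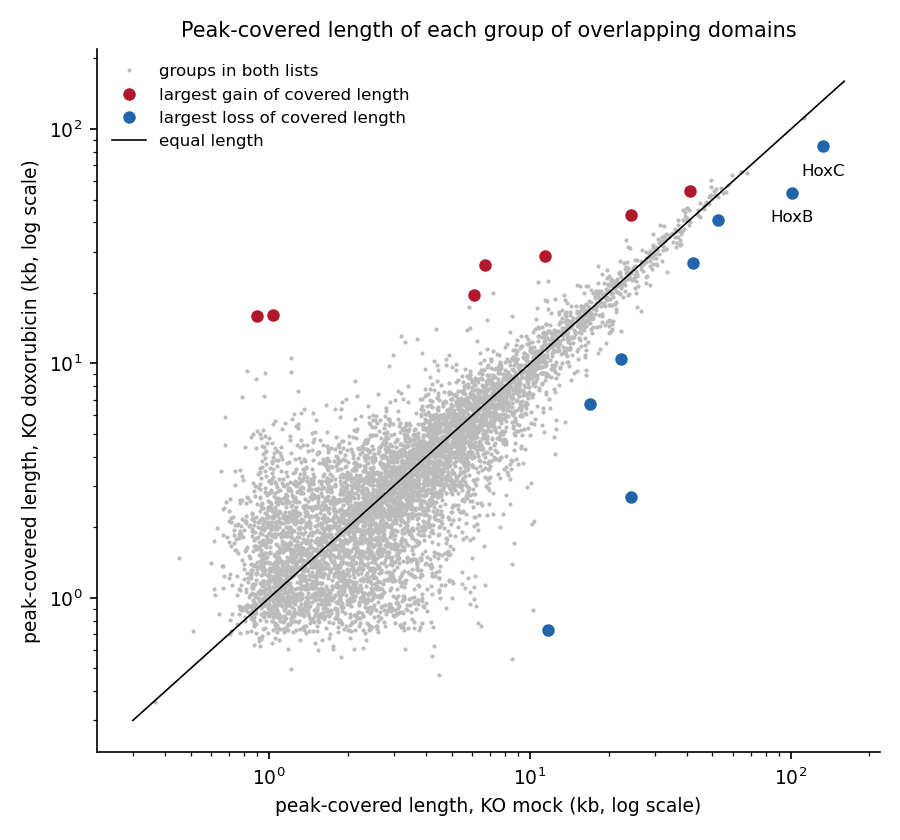
Peak-covered length in KO doxorubicin cells (vertical axis, kb, log scale) against KO mock cells (horizontal axis, kb, log scale) for each of the 6397 groups of overlapping domains found in both lists. The line marks equal length, red points are the largest gains (the HoxD domain, at 0 kb in KO mock cells, cannot be drawn), blue points the 8 largest losses, and the HoxC (84.3 kb in KO doxorubicin, 133 kb in KO mock) and HoxB groups (53.6 kb in KO doxorubicin, 101 kb in KO mock) lie furthest below the line in kb.

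The Hox clusters held the largest losses and the largest gain. Their places on mm9 are taken from general knowledge of the mouse genome, because no mm9 annotation was used. The order of genes along each chromosome is that of the RefSeq annotation of GRCm38.p6, from which no coordinates were taken. The HoxC group lay at chr15:102724822-102872447 and formed a single domain of 148 kb in KO mock cells, their longest. Its covered length was 84.3 kb in KO doxorubicin and 133 kb in KO mock cells, with 99.2 kb in WT doxorubicin and 143 kb in WT mock cells. Both doxorubicin lists were thus shorter than both mock lists.

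Most of the HoxC loss lay at the high-coordinate end, where Hoxc4 ends a row that begins with Hoxc13. Up to position 102817291 the cluster was covered over 84.3 kb in KO doxorubicin cells and 89.7 kb in KO mock cells. Beyond it, over 55.2 kb, no peak was listed in KO doxorubicin cells, against 16 peaks covering 42.9 kb in KO mock cells. The highest of those 16 had a score of 737. The WT lists covered 15.1 kb of the same stretch with doxorubicin, in 11 peaks, and 52.6 kb with mock, in 8 peaks. In KO doxorubicin cells the blank reached past the group, over 96.7 kb to the next listed peak, and 7 running numbers were left out of the list across it. The group's neighbour at chr15:102886497-102894173 was the highest-scoring of all domains found with mock alone. It held 5.97 kb of peaks in KO mock cells, and WT cells had 1.07 kb there with doxorubicin and 6.31 kb with mock.

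H3K4me3 ran the other way over the same HoxC stretch. It covered 18.2 kb in KO doxorubicin cells and 12.4 kb in KO mock cells. In WT cells it covered 19.7 kb with doxorubicin and 17.3 kb with mock. Over the whole group H3K4me3 covered 35.7 kb in KO doxorubicin and 19.3 kb in KO mock cells, and 39.7 kb in WT doxorubicin and 32.9 kb in WT mock cells. The KO mock list was the shortest of the 4 at this cluster. Over the genome it was also the shortest, with 27.1 Mb of H3K4me3 peaks, against 29.2 Mb in KO doxorubicin, 32.1 Mb in WT doxorubicin and 33.4 Mb in WT mock cells, and the part of this in the values at HoxC was not tested.

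At HoxB the 2 genotypes differed in direction. The group at chr11:96111126-96218202, on the Hoxb1 side of the cluster, was 1 domain of 107 kb in KO mock cells, with 11 peaks covering 101 kb. In KO doxorubicin cells it broke into 6 domains, the most of any KO mock domain, with 30 peaks covering 53.6 kb. The longest of the 6 pieces spanned 43.8 kb, and 4.47 to 7.31 kb lay between neighbouring pieces. The widest single peak measured 6.53 kb in KO doxorubicin cells and 28.4 kb in KO mock cells. The WT lists covered 78.0 kb with doxorubicin and 19.4 kb with mock.

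The low WT mock value at HoxB rested on 2 peaks with scores of 1138 and 1014, with 87.7 kb free of listed peaks between them. Between these 2 peaks no running number was left out of the list. The neighbouring HoxB group on the Hoxb13 side, at chr11:96021946-96083083, was nearly equal in the 4 lists. It was covered over 57.5 kb in KO doxorubicin and 57.1 kb in KO mock cells, and over 57.9 kb in WT doxorubicin and 57.7 kb in WT mock cells. H3K4me3 was listed nowhere in that group in any of the 4 conditions. In the group on the Hoxb1 side it covered 36.9 kb in KO doxorubicin and 27.9 kb in KO mock cells, and 38.9 kb in WT doxorubicin and 36.9 kb in WT mock cells.

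At HoxD the largest gain was found. The domain at chr2:74559434-74591569, on the Hoxd1 side, spanned 32.1 kb in KO doxorubicin cells, with 7 peaks covering 26.9 kb. No peak overlapped it in KO mock cells, and it was the longest and highest-scoring domain found with doxorubicin alone. WT cells had the mark there in both treatments, over 28.4 kb with doxorubicin and 32.1 kb with mock. The KO mock list therefore stood apart from the other 3. Its blank measured 36.0 kb between listed peaks with scores of 104 and 179, and 1 running number was left out across it. H3K4me3 covered little of the domain, 1.86 kb in KO doxorubicin and 0.744 kb in KO mock cells, and 4.47 kb in WT doxorubicin and 2.06 kb in WT mock cells. On the Hoxd13 side, at chr2:74480481-74556369, all 4 lists were alike, with 65.1 kb in KO doxorubicin and 67.9 kb in KO mock cells, and 66.8 kb in WT doxorubicin and 72.5 kb in WT mock cells.

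**Figure D3:**
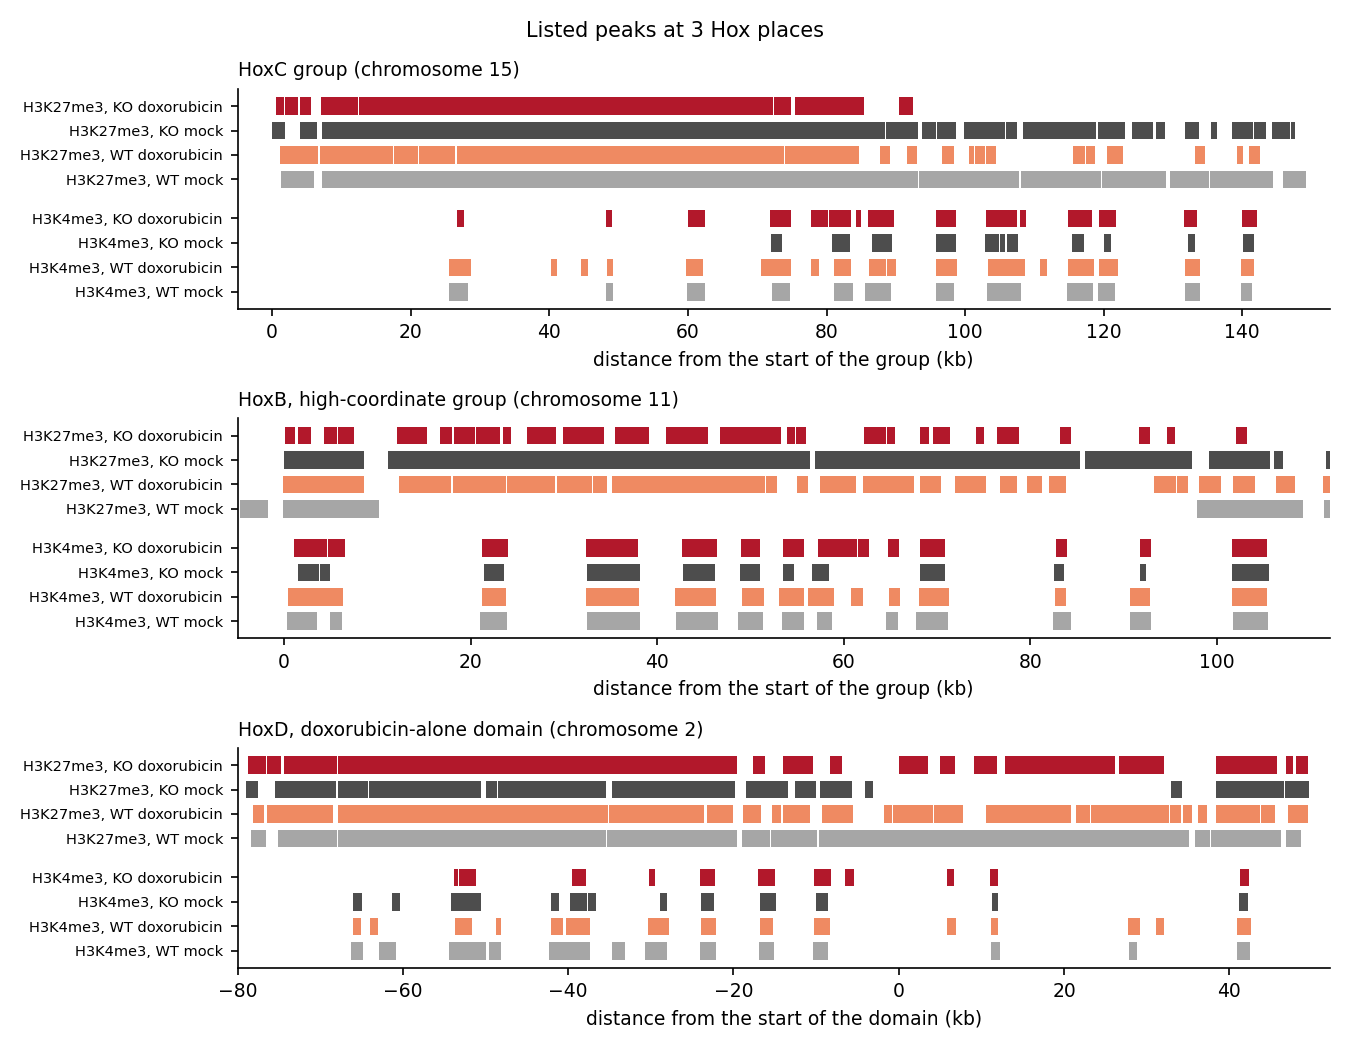
Listed peaks of H3K27me3 (upper 4 rows of each panel) and H3K4me3 (lower 4 rows) in KO doxorubicin, KO mock, WT doxorubicin and WT mock cells at HoxC, HoxB and HoxD, against distance in kb from the start of the named group or domain. At HoxC the H3K27me3 rows of KO doxorubicin cells end at 92.5 kb while those of KO mock cells run on, at HoxB the KO doxorubicin row is broken into pieces, and at HoxD the KO mock row alone is blank over the domain.

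HoxA showed a smaller difference in the other direction from HoxC. The group at chr6:52165367-52227942, on the Hoxa13 side, was covered over 55.4 kb in KO doxorubicin and 51.8 kb in KO mock cells. WT cells had 54.5 kb with doxorubicin and 47.6 kb with mock. Both genotypes thus had slightly more covered length with doxorubicin. H3K4me3 covered less of it with doxorubicin in both, with 20.9 kb in KO doxorubicin and 25.2 kb in KO mock cells, and 27.05 kb in WT doxorubicin and 34.5 kb in WT mock cells.

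Around the targeted locus on chromosome 17, whose place on mm9 is also taken from general knowledge, the lists held a few short domains. A domain at the lower coordinates, at chr17:29194099-29197563 in KO doxorubicin cells and chr17:29194004-29197691 in KO mock cells, was present in all 4 conditions. An H3K4me3 peak overlapped that domain in all 4 conditions as well. Further along, KO doxorubicin cells had a peak of 470 bp at chr17:29215715-29216184 with a score of 99.5. KO mock cells had a domain of 7.24 kb in 4 peaks at chr17:29208971-29216211, of which a peak of 530 bp at the same place had a score of 2937. The low-coordinate end of that domain overlapped a WT mock domain of 2.44 kb at chr17:29208566-29211002, and no WT doxorubicin domain overlapped it. At the place of the 530 bp peak no WT list held an H3K27me3 peak, while all 4 H3K4me3 lists held a peak of that mark. Peak lists do not show whether the locus was deleted, so they do not check the genotype.

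Outside the Hox clusters, the largest gains joined scattered KO mock domains or filled nearly empty stretches. No gene is named for these regions, since no mm9 annotation was used. The group at chr1:63940898-63982727 was a single KO doxorubicin domain over 4 KO mock domains, covered over 26.2 kb in KO doxorubicin and 6.72 kb in KO mock cells. WT cells had 9.03 kb there with doxorubicin and 7.81 kb with mock. The group at chr13:99306904-99365460 joined 6 KO mock domains, the most of any KO doxorubicin domain. It was covered over 43.1 kb in KO doxorubicin and 24.4 kb in KO mock cells, and over 31.0 kb in WT doxorubicin and 27.2 kb in WT mock cells.

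At another 2 of the largest gains, little or nothing was listed without the drug in either genotype. At chr8:31664561-31686911 peaks covered 15.9 kb in KO doxorubicin and 0.902 kb in KO mock cells, and 8.38 kb in WT doxorubicin cells with none listed in WT mock cells. At chr14:47046668-47073687 they covered 16.0 kb in KO doxorubicin and 1.04 kb in KO mock cells, and 9.43 kb in WT doxorubicin cells with none listed in WT mock cells. Another gain, at chr3:96124776-96149261, was partly covered without the drug. Peaks there covered 19.6 kb in KO doxorubicin and 6.08 kb in KO mock cells, and 20.6 kb in WT doxorubicin and 8.01 kb in WT mock cells. These 3 places had the larger covered length with doxorubicin in both genotypes.

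A neighbouring pair of long domains on chromosome 9 also grew. The domain at chr9:47321435-47397391 was covered over 60.9 kb in KO doxorubicin and 48.7 kb in KO mock cells, and the WT lists had 47.5 kb with doxorubicin and 48.3 kb with mock. The domain at chr9:47436188-47506995 was covered over 54.5 kb in KO doxorubicin and 39.9 kb in KO mock cells, and over 39.0 kb in WT doxorubicin and 36.2 kb in WT mock cells. Each joined 4 KO mock domains. Their 1 Mb window had the largest gain of all windows, with 174 kb covered in KO doxorubicin and 119 kb in KO mock cells.

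Among domains found with doxorubicin alone, the second by score lay in neither WT list. It spanned 14.6 kb at chr7:89667391-89681953, with a score of 798 and 11.2 kb covered. Of the 8 highest-scoring such domains, the other 7 overlapped the WT doxorubicin list and 4 of them the WT mock list as well. All 8 of the highest-scoring domains found with mock alone overlapped the WT mock list, and 6 of them the WT doxorubicin list too. Of all domains found with doxorubicin alone, 31.9% overlapped the WT doxorubicin list and 32.5% the WT mock list. Of all found with mock alone, 31.4% overlapped the WT doxorubicin list and 42.3% the WT mock list. The 8 of each kind were picked by score, and the part of score in their counts was not tested.

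The largest losses outside HoxC and HoxB mostly had the same direction in WT cells, which was also the general direction there. Of the 8 groups that lost 10 kb or more in KO cells, 6 were less covered with doxorubicin in WT cells. Among all 1151 groups of 10 kb or more the share was 71.8%. At chr1:122487396-122517188 peaks covered 2.69 kb in KO doxorubicin and 24.5 kb in KO mock cells, and 8.56 kb in WT doxorubicin and 28.3 kb in WT mock cells. At chr6:72140349-72190784 they covered 26.8 kb in KO doxorubicin and 42.3 kb in KO mock cells, and 12.6 kb in WT doxorubicin and 38.8 kb in WT mock cells. At chr3:103368480-103394771 they covered 10.5 kb in KO doxorubicin and 22.3 kb in KO mock cells, and 9.38 kb in WT doxorubicin and 24.5 kb in WT mock cells. An exception was chr11:84376255-84396816, covered over 0.732 kb in KO doxorubicin and 11.7 kb in KO mock cells, but over 9.02 kb in WT doxorubicin and 8.81 kb in WT mock cells.

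Large differences in KO cells mostly had the same direction in WT cells, which were measured in other libraries. Of the 88 groups that gained 5 kb or more in KO cells, including those found with doxorubicin alone, 64 were more covered with doxorubicin in WT cells (72.7%, 62.2 to 81.7%) and 20 less. Of the 80 groups that lost 5 kb or more, 71 were less covered with doxorubicin in WT cells (88.8%, 79.7 to 94.7%) and 9 more. Among all 1151 groups of 10 kb or more, 27.9% were more covered and 71.8% less covered with doxorubicin in WT cells. The gained groups thus ran against the general shift of the WT lists. The lost groups ran with it, and their share exceeded it by less. The order weakened at smaller changes. Of 898 groups that gained 2 kb or more in KO cells, 45.1% were more covered with doxorubicin in WT cells and 44.3% less. Over all 13093 groups of any length, 23.7% were more covered and 46.4% less covered with doxorubicin in WT cells.

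**Figure D4:**
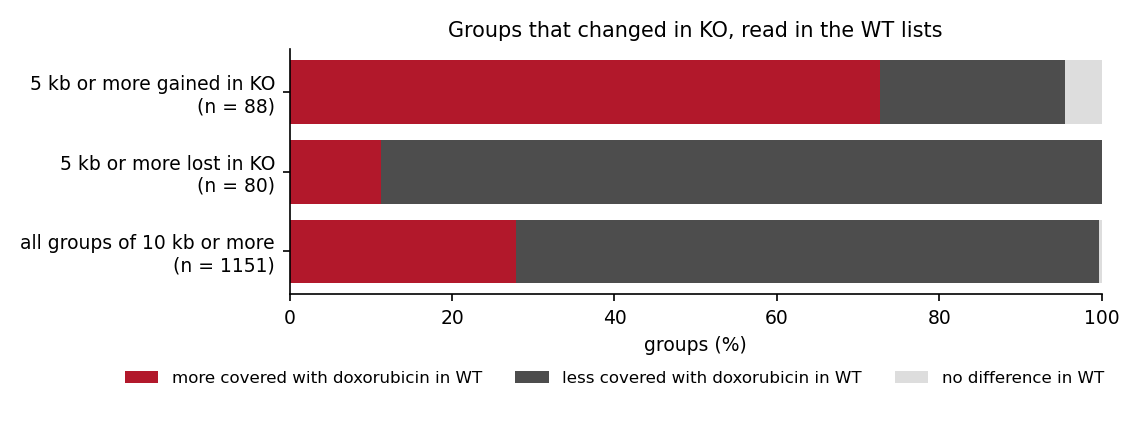
Share in percent of the groups that gained 5 kb or more with doxorubicin in KO cells (n = 88), that lost 5 kb or more (n = 80), and of all groups of 10 kb or more (n = 1151), by their difference in the WT lists, doxorubicin minus mock. More covered length with doxorubicin in WT cells (red) is found for 72.7% of the gained groups, 11.2% of the lost groups and 27.9% of all.

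The lost groups carried H3K4me3 more often than the gained ones. Of the groups that gained 5 kb or more, 20.5% overlapped an H3K4me3 peak of KO doxorubicin cells and 23.9% one of KO mock cells. Of the groups that lost 5 kb or more, 40 overlapped one of KO doxorubicin cells and 39 one of KO mock cells (48.8%). The median span was 16.3 kb for gained and 14.9 kb for lost groups. Among all groups of 10 kb or more, H3K4me3 overlapped 42.1% in KO doxorubicin and 45.0% in KO mock cells. The lost groups thus lay near this share and the gained groups below it, but the sets are not alike. Both the gained and the lost groups include some under 10 kb and some found in a single KO list. Domains of a single KO list seldom overlapped H3K4me3. The part of this in the shares was not tested.

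By chromosome the difference was small apart from chromosome 14. Over the 20 chromosomes, 8 had more and 12 less covered length with doxorubicin in KO cells. The ratio of KO doxorubicin to KO mock ran from 0.899 on chromosome 15, which holds HoxC, to 1.22 on chromosome 14. On chromosome 14 peaks covered 1.34 Mb in KO doxorubicin and 1.10 Mb in KO mock cells. There 172 of 404 KO doxorubicin domains had no KO mock counterpart (42.6%), and 95 of 335 KO mock domains had no KO doxorubicin counterpart (28.4%). In WT cells chromosome 14 also had the highest ratio, 0.910, with 1.29 Mb in WT doxorubicin and 1.42 Mb in WT mock cells.

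**Figure D5:**
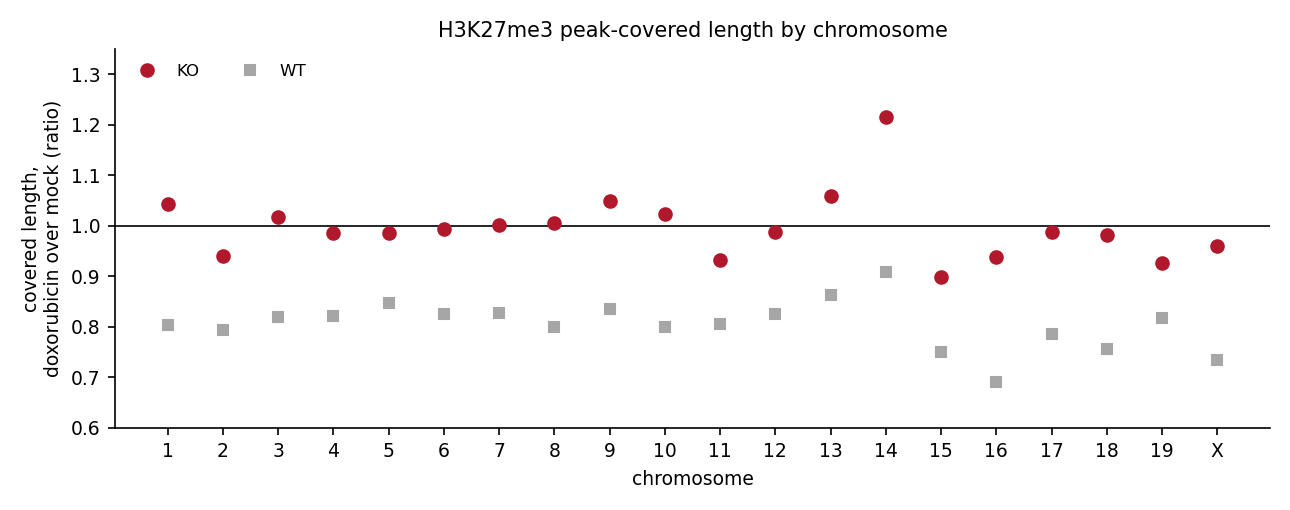
Ratio of H3K27me3 peak-covered length, doxorubicin over mock, on each of the 20 chromosomes in KO cells (red circles) and WT cells (grey squares). The KO values lie between 0.899 and 1.22, and chromosome 14 has the highest value in both genotypes, 1.22 in KO and 0.910 in WT cells.

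In windows of 1 Mb, 926 of 1755 had more and 828 less covered length in KO doxorubicin than in KO mock cells. Differences of 20 kb or more were balanced, with 18 windows gaining and 18 losing. The largest losses were the windows of the HoxB cluster, with 210 kb in KO doxorubicin and 284 kb in KO mock cells, and of the HoxC cluster, with 176 kb in KO doxorubicin and 248 kb in KO mock cells. The next, on chromosome 4, had 109 kb in KO doxorubicin and 156 kb in KO mock cells.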

How the data were processed

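The files used were 1 peak list for each of the 8 ChIP libraries. The submitters' processing notes name the aligner Bowtie 0.12.7, the peak caller MACS 1.4.2 and the mouse build mm9. Per the file headers, the score that the authors deposited for each peak is 10 times the negative log10 of a p-value. No list held a score under 80. In the KO lists 46.9% (doxorubicin) and 47.2% (mock) of the peak numbers up to the highest were absent, and how peaks were removed is not given in the sources used here. Input libraries and reads were not analysed here. Deposited starts were taken to count from 0 and are printed counting from 1.

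Peaks less than 3000 bp apart were joined, overlaps of 1 bp counted, and overlapping domains of both lists formed groups. Covered length is the summed length of peaks. Named regions were, for each kind, the 8 highest in score (present in 1 list), length, number of pieces, gain or loss, ties going by position, and the text gives a selection of them. The HoxA region and the neighbouring HoxB and HoxD groups on the Hoxb13 and Hoxd13 sides were chosen after their values were seen. The members, loci and rules were chosen with earlier results of these data known. Gene lists and cell type markers were not analysed here, since no mm9 annotation was used. The domain rules were tested on simulated lists. Alternatives were other joining distances, a score of at least 100, equal numbers of peaks, domains of at least 2 kb, an overlap of 50% and presence within 1 kb. Computation used Python 3.11.15 with pandas 2.3.3, numpy 2.4.6 and scipy 1.17.1.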

Additional observations from a re-analysis of the deposited data

Results flagged for a closer look

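At 3 of the groups with the largest gain or loss in KO cells, the WT lists differed in the opposite direction. These differences between genotypes were not tested, since each rests on 1 library per condition. At HoxD, chr2:74559434-74591569, the covered length differed by 26.9 kb in KO cells, doxorubicin minus mock, and by -3.72 kb in WT cells. At HoxB, chr11:96111126-96218202, the differences were -47.5 kb in KO cells and 58.7 kb in WT cells. At chr11:84376255-84396816 they were -11.0 kb in KO cells and 0.212 kb in WT cells. At HoxD and HoxB a single mock list stood apart, that of KO mock cells at HoxD (0 kb against 26.9, 28.4 and 32.1 kb in KO doxorubicin, WT doxorubicin and WT mock cells) and that of WT mock cells at HoxB (19.4 kb against 53.6, 101 and 78.0 kb in KO doxorubicin, KO mock and WT doxorubicin cells). The part of the peak calling in these blanks was not tested.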

How the results depend on the processing

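The ratio of covered length in KO cells, doxorubicin over mock, stayed below 1 in the alternatives that could move it. It was 0.975 with scores of at least 100 and 0.982 with domains of at least 2 kb. With equal numbers of highest-scoring peaks it was 0.961, but that setting removed only KO doxorubicin peaks and could only lower it. Other joining distances leave the covered length as it is, so the ratio of 0.990 could not change there. Counts followed how finely peaks were joined. Without joining, 6297 of 17828 KO doxorubicin peaks (35.3%) had no KO mock peak and 5646 of 16580 KO mock peaks (34.1%) no KO doxorubicin peak, 2092 KO mock peaks were split and 1668 KO doxorubicin peaks joined several. Joining below 1 kb gave 484 splits and 457 joins. Among domains of at least 2 kb, 495 of 5080 KO doxorubicin domains (9.74%) and 441 of 5077 KO mock domains (8.69%) had no counterpart. The other alternatives moved no count by more than 1.5 times. Splits outnumbered joins in each alternative that gave both counts, all but presence within 1 kb. With equal numbers of peaks, more KO mock domains (3352) than KO doxorubicin domains (3076) had no counterpart, the reverse of the order in the full lists.

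The difference of doxorubicin minus mock in KO cells was also read under alternatives chosen after seeing the data. It was -41.5 to -42.9 kb at the HoxC end, -47.5 to -53.1 kb at HoxB and 26.9 kb at HoxD. These alternatives, scores of at least 100 and equal numbers of peaks, could not change the HoxD value. No KO mock peak was listed there, and the KO doxorubicin peaks scored 146.8 or more. Equal numbers left the KO mock list whole, so that setting could not change the HoxC value, where no KO doxorubicin peak was listed. At HoxB both could only enlarge the loss, since the KO mock peaks there scored 107.95 or more. Of the groups gaining at least 10 kb in KO cells 81.2% were also more covered in WT cells, and of those losing as much 6 of 8 were less covered. Of 1014 groups losing at least 2 kb, 755 were less covered in WT cells, and of 898 gaining at least 2 kb 45.1% were more covered. Among all groups of 10 kb or more, 71.8% were less and 27.9% more covered with doxorubicin in WT cells. The 6 of 8 thus lay near the general share, and the 81.2% lay above it. Over all 13093 groups, 46.4% were less and 23.7% more covered. Whether the counts at 2 kb exceed the general WT shift for groups of their length was not tested. No paired analysis was possible because each group had 1 library.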
